A study of Homo sapiens with 18 samples.

Results

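The genes described here carry a human cell through the start of S phase and copy its DNA. They are 49 genes named in a list of S phase and replication genes, out of 26485 genes in the table of normalized counts. The list names genes by symbol, and it was chosen with earlier results of these data known. All 49 had a mean of at least 10 normalized counts over the 18 libraries, and so stood among the 13096 genes tested. Messenger RNA was measured in L3.6pl cells, a line grown from a human pancreatic tumour, and in a gemcitabine-resistant derivative of it.

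The libraries fell into 6 groups of 3. GemR siSTIM1 cells, the resistant derivative depleted of STIM1, were harvested after thapsigargin or after vehicle. GemR siCont cells, the same derivative with control siRNA, and Par siCont cells, the parental line with control siRNA, were each harvested after thapsigargin or after vehicle too. All 6 groups had received siRNA for 48 h, thapsigargin was given at 500 nM for the last 3 h, and the vehicle was DMSO. The resistant cells were kept in 64 nM gemcitabine, a nucleoside analog that stalls replication forks, and they are 1 derivative. Any line effect therefore belongs to that derivative as grown in the drug. The labels give no gemcitabine for Par cells, so derivative and drug cannot be told apart. No Par culture with siSTIM1 was among the samples. Thapsigargin blocks the pump that fills the endoplasmic reticulum with calcium, and STIM1 is the sensor in that membrane that opens calcium channels at the cell surface when the store is empty.

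Replication origins are licensed in G1 phase, when ORC, CDC6 and CDT1 load the ring of MCM2 to MCM7, the core of the replicative helicase, onto DNA. At the start of S phase, cyclin E with its kinase and further factors join CDC45 and the GINS complex to that ring, and polymerases, the PCNA clamp and its loader then copy the strands. Many of these genes are transcribed by E2F factors, which are released from the RB protein as a cell commits to divide, so their messages are known as markers of cycling cells and of tumours.

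The tested states were visible in marker genes. STIM1 had 272, 353 and 305 normalized counts in GemR siSTIM1 cells under thapsigargin and 390.3, 356 and 401 under vehicle. It had 6079, 6307 and 6174 in GemR siCont cells under thapsigargin and 4976, 6294 and 6401 under vehicle, against 423, 421 and 448 under thapsigargin and 444, 447 and 481 under vehicle in Par cells. STIM1 in depleted cells was thus below every other library, Par included, but not at 0. RRM1, the ribonucleotide reductase subunit that gemcitabine acts on, ranged from 42691 to 59323 normalized counts in the 12 GemR libraries, against 2551 to 3060 in the 6 Par libraries. All 6 genes listed as a check of endoplasmic reticulum stress rose with thapsigargin in each of the 3 cell states. Reads recovered per library ranged from 8922439 to 16519239. In 2 libraries, the first replicate of vehicle-treated GemR siCont cells and the first of GemR siSTIM1 cells under thapsigargin, longer genes lay lower relative to the group means (Spearman rho of -0.50 and -0.43 over 12419 genes). The others ranged from -0.29 to 0.46, the highest being GemR siCont vehicle replicate 3, and deviations within a group of 3 are not independent of each other. Results that moved without them are given below with and without them. Of the epithelial markers, KRT7, KRT8, KRT18, KRT19 and EPCAM stood at 2286 normalized counts or more in every library, and CDH1 between 81.3 and 641. Of 9 immune, endothelial and fibroblast markers, DCN was at 0 in every library, and CD3E, LUM, PTPRC and VWF did not pass 8.50. PECAM1 reached 158, COL1A2 76.1 and COL1A1 3123.

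E2F factors bind short motifs in promoters. RefSeq promoter windows of GRCh38.p14, from 250 bases before to 50 bases after the start, were found for 41 of the 49 members. MCM4, MCM5, GINS4, RPA2, RPA3, E2F8, CCNE2 and FAM111B had no entry in the table. Only the first window listed for each gene was counted. MCM7, CDC45 and UHRF1 have 3 listed, and PCNA, POLD1, TK1 and FAM111A have 2. An E2F motif (TTTCGCGC, TTTGGCGC, TTTCCCGC or TTTGCCGC on either strand, overlapping matches counted) stood in 23 of the 41 windows, or 56.1%. The same letters stood in 5.42% of the 9784 windows of tested genes and in 3.33% of all 27305. Of the 30 matches in member windows, 24 began within 100 bases before the start or after it. The windows of 5 members are shown because they hold the motif and belong to members described below: the factors E2F1 and E2F2 themselves, UHRF1, the helicase subunit MCM6 with 2 overlapping pairs, and CDC6, the member that rose. Each runs from 160 bases before the start to 20 bases from the start on, on the strand of the gene, with E2F matches in capitals.

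E2F2 (chr1:23531214-23531393, minus strand): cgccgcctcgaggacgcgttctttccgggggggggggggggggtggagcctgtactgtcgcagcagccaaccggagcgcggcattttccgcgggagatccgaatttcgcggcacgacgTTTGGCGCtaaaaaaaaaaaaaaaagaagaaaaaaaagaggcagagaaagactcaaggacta
E2F1 (chr20:33686366-33686545, minus strand): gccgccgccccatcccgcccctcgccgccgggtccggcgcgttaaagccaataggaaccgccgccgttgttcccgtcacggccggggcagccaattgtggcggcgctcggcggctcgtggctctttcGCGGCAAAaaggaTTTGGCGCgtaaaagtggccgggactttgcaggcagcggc
UHRF1 (chr19:4909341-4909520, plus strand): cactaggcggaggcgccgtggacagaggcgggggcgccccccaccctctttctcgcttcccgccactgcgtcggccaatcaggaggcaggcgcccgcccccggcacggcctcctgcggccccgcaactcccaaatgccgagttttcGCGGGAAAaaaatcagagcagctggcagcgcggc
MCM6 (chr2:135876424-135876603, minus strand): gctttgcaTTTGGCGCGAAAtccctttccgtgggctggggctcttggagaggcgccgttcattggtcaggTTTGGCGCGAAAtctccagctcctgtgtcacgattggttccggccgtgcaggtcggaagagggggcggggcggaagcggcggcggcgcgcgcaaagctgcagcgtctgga
CDC6 (chr17:40287719-40287898, plus strand): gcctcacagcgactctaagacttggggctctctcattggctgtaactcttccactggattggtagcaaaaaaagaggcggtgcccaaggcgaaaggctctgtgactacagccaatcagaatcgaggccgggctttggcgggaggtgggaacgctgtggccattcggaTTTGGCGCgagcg

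The CCAAT box (CCAAT, either strand) was found in 56.1% of member windows and 36.8% of the windows of tested genes. The cell cycle element of late genes (TTTGAA), the ATF4 element (TGATGNAAT) and the ER stress element (CCAAT and CCACG at the spacing of the known element) were found in 0 of the 41 member windows. Among tested genes they stood in 9.45%, 0.47% and 0.143% of windows. A match is a run of letters and not a measured binding site.

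Thapsigargin lowered most of the replication genes within 3 h in each of the 3 cell states. In GemR siSTIM1 cells 38 of 49 members fell and 1 rose, with a median log2 fold change of -0.33, while 11.9% of all genes tested fell and 12.5% rose (24.3% in either direction). In GemR siCont cells 41 fell and 1 rose, with a median of -0.52, against 15.8% and 17.9% of all genes (33.6%). In Par cells 38 fell and 2 rose, with a median of -0.45, against 19.7% and 20.5% of all genes (40.1%). Among the 10193 genes at least as abundant as the lowest member, 13.6%, 18.2% and 22.4% fell. The medians over all genes lay at -0.01, -0.03 and -0.02 in the same order of cell states. A gene is said to rise or fall where limma's test gave an adjusted p under 0.05. The table was fitted whole, and p-values were adjusted over all genes tested.

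The 3 comparisons share no library. The members that fell in all 3 numbered 32, and 5.21% of all genes tested did so. CDC6 rose in all 3, as 7.80% of all genes did. GINS4 and POLA1 passed in none, 6 members (ORC6, CDC45, RFC1, RFC4, RPA3 and TK1) passed in 1, and 8 (PRIM1, POLD1, POLE, RFC2, LIG1, RPA1, CHAF1B and DTL) passed in 2. The calls kept whichever 1 of the libraries compared was left out numbered 28 of 39 in GemR siSTIM1 cells, 41 of 42 in GemR siCont cells and 37 of 40 in Par cells. With both libraries of the lowest rho left out, 38, 42 and 40 members fell and 1, 1 and 2 rose in the same order. When only the libraries compared were fitted, 33 fell in GemR siSTIM1 cells, 36 in GemR siCont cells and 40 in Par cells. Without GemR siSTIM1 vehicle replicate 2, 29 members fell in GemR siSTIM1 cells. The authors' deposited tables called 40, 42 and 39 members lower in the same order, where 11.5%, 14.5% and 16.4% of their genes were lower. Replicate numbers are all that the labels give, so p-values measure the spread between libraries, which may be technical. The libraries come from whole cultures, where fewer cells in S phase and less of each message per cell cannot be told apart.

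**Figure D1:**
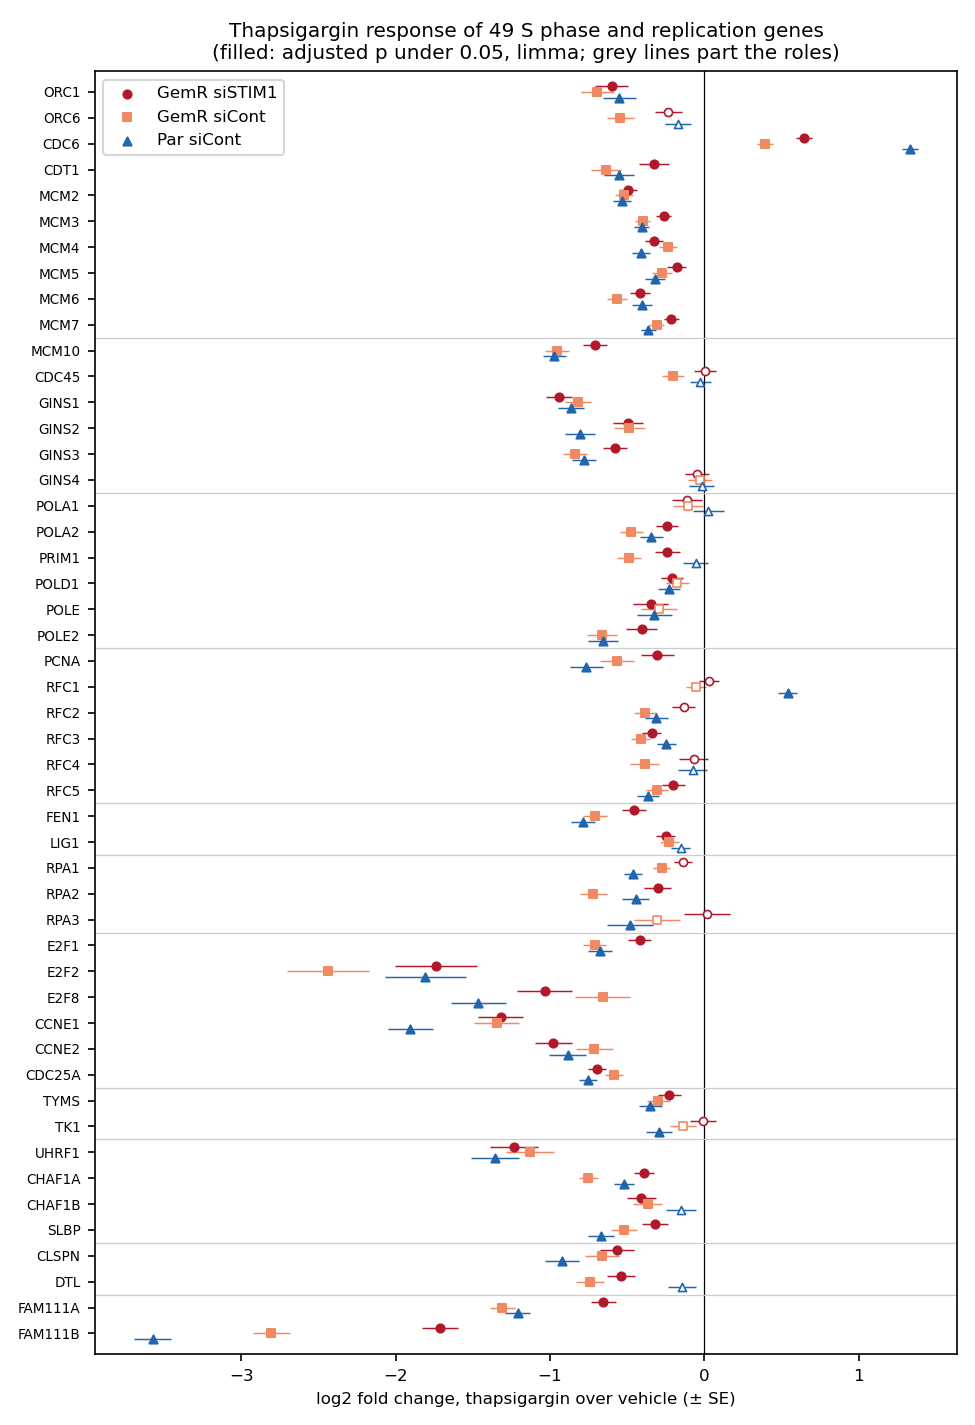
Log2 fold change with thapsigargin over vehicle (x axis, bars are standard errors) of the 49 members (y axis, ordered by role), in GemR siSTIM1 (circles), GemR siCont (squares) and Par cells (triangles). Filled points passed an adjusted p under 0.05. FAM111B lies farthest to the left in Par and GemR siCont cells, and CDC6 lies to the right of 0 in all 3.

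FAM111B fell most of all members in GemR siCont and Par cells, and E2F2 and FAM111B fell most in GemR siSTIM1 cells. FAM111B, an S phase protein with a trypsin-like protease domain, lies at chr11:59107185-59127410 on the plus strand in GENCODE 29 (GRCh38), next to FAM111A at chr11:59142748-59155039. FAM111B had 272, 349.7 and 349.7 normalized counts under thapsigargin against 1097, 1046 and 1026 under vehicle in GemR siSTIM1 cells. It had 73.3, 82.8 and 99.6 against 632, 556 and 606 in GemR siCont cells, and 29.3, 32.4 and 27.03 against 389.8, 358 and 339 in Par cells. The treated and vehicle libraries did not overlap in any cell state, and the treated libraries formed 3 separate levels, with Par lowest. The log2 fold change was -1.71 ± 0.12 (SE) in GemR siSTIM1 cells (adjusted p = 1.6e-09), -2.81 ± 0.12 in GemR siCont cells (adjusted p = 7.7e-13) and -3.57 ± 0.12 in Par cells (adjusted p = 1.2e-14). In Par cells it was 11.9-fold lower than under vehicle.

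FAM111A, a protease that clears proteins bound to DNA ahead of the fork, moved the same way with smaller steps. It had 595, 718 and 668 against 1051, 1021 and 1041 normalized counts in GemR siSTIM1 cells, thapsigargin before vehicle. In GemR siCont cells the values were 224, 250.1 and 225 under thapsigargin against 566, 556 and 614 under vehicle, and in Par cells 203, 218 and 213 against 506, 468 and 496. No treated library reached a vehicle library of its own cell state, but 2 of the 3 treated siSTIM1 libraries stood above every vehicle library of the other cell states. The log2 fold changes were -0.66 ± 0.08, -1.31 ± 0.08 and -1.21 ± 0.08 in the 3 cell states, siSTIM1 first and Par last (adjusted p = 3.2e-06, 1.3e-10 and 4.5e-10).

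The 6 regulators of S phase entry all fell in all 3 cell states, with median log2 fold changes of -1.01, -0.71 and -1.18 in GemR siSTIM1, GemR siCont and Par cells. CCNE1 encodes cyclin E1, which activates CDK2 at the start of S phase. It had 97.8, 115 and 110.4 against 272, 250.1 and 289 normalized counts in GemR siSTIM1 cells and 85.6, 137 and 94.3 against 309.6, 260.1 and 228 in GemR siCont cells, thapsigargin first. In Par cells it had 102, 103 and 93.6 under thapsigargin against 368, 365 and 391 under vehicle. The groups did not overlap, and the log2 fold changes were -1.32 ± 0.14, -1.34 ± 0.14 and -1.90 ± 0.14 (adjusted p = 7.4e-07, 4.2e-07 and 3.1e-09). CCNE2, the second cyclin E, fell by less, with log2 fold changes of -0.98, -0.71 and -0.89. Exons of INTS8 on the other strand cover 37.1% of its exon length, and the library kit does not mark strand. INTS8 itself had log2 fold changes of -0.15, 0.01 and -0.04 and did not pass in any of the 3.

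E2F2, an activating E2F factor and the least abundant member (mean of 84.1 normalized counts), fell to 41.5, 50.9 and 49.96 in treated GemR siSTIM1 cells, against 137, 164 and 184 under vehicle. It fell to 15.04, 13.2 and 31.1 in treated GemR siCont cells, against 73.5, 137 and 112, and to 30.2, 37.8 and 42.6 in treated Par cells, against 134, 107 and 154. Replicates spread widely, and the third treated GemR siCont library stood at more than the other two of its group, yet no treated library overlapped its vehicle group. The log2 fold changes were -1.74 ± 0.26, -2.44 ± 0.26 and -1.81 ± 0.26 (adjusted p = 4.8e-05, 4.9e-07 and 2.0e-05). E2F1, an activating factor too, had log2 fold changes of -0.42, -0.71 and -0.67. CDC25A, the phosphatase that activates CDK2, had -0.70, -0.59 and -0.75.

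E2F8 is an atypical E2F factor that represses genes the others activate. It had 81.05, 126 and 118 against 246, 219.6 and 194 normalized counts in GemR siSTIM1 cells, thapsigargin first. It had 85.6, 88.1 and 82.5 against 106, 136 and 172 in GemR siCont cells and 83.1, 114 and 90.5 against 287, 235 and 273 in Par cells. The treated libraries of the 3 cell states lay in 1 common range, while the vehicle libraries did not. The log2 fold changes were -1.03 ± 0.18, -0.66 ± 0.18 and -1.46 ± 0.18 (adjusted p = 2.0e-04, 0.00744 and 2.1e-06).

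CDC6, the ATPase that loads the MCM ring with ORC and CDT1, was the exception among the licensing genes. It had 4046, 4359 and 4093 normalized counts under thapsigargin against 2699, 2687 and 2619.8 under vehicle in GemR siSTIM1 cells. It had 3310.2, 3551 and 3276 against 2543, 2544 and 2632 in GemR siCont cells and 6527, 6347 and 6368 against 2554, 2558 and 2541 in Par cells. The 9 vehicle libraries lay close together, and the treated libraries stood above them at a separate level in each cell state, Par highest. The log2 fold changes were 0.64 ± 0.05, 0.39 ± 0.05 and 1.33 ± 0.05 (adjusted p = 1.3e-08, 6.6e-06 and 1.3e-13). Its window holds 1 E2F match, 3 CCAAT boxes and no ATF4 or ER stress element.

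Of the 10 licensing genes, 8, 9 and 8 fell in GemR siSTIM1, GemR siCont and Par cells. ORC6, a small ORC subunit, had -0.23, -0.55 and -0.17 and fell in GemR siCont cells alone. MCM2 to MCM7 fell in all 3 cell states, with log2 fold changes from -0.49 (MCM2) to -0.18 (MCM5) in GemR siSTIM1 cells. In GemR siCont cells they ran from -0.57 (MCM6) to -0.24 (MCM4), and in Par cells from -0.54 (MCM2) to -0.32 (MCM5). MCM5 in GemR siSTIM1 cells was a call at the margin (adjusted p = 0.0446), lost without any 1 of 4 of the libraries compared, among these at the weakest with a log2 fold change of -0.15 and an adjusted p of 0.161 without vehicle replicate 3. ORC1, the largest ORC subunit, had -0.60, -0.69 and -0.55. CDT1 had -0.32, -0.64 and -0.55, and in GemR siSTIM1 cells its call was lost without any 1 of 4 libraries, at the weakest with an adjusted p of 0.109 (log2 fold change of -0.25) without thapsigargin replicate 3.

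Among the genes that switch the helicase on, MCM10, GINS1, GINS2 and GINS3 fell in all 3 cell states while GINS4 did not pass in any. MCM10, which binds the activated helicase, had log2 fold changes of -0.71, -0.96 and -0.97. GINS1 had -0.94, -0.82 and -0.86, and GINS3 had -0.58, -0.84 and -0.78. GINS4, a subunit of the same 4-protein complex, had -0.05, -0.03 and -0.02 (adjusted p = 0.729, 0.805 and 0.874). CDC45 had 0.01, -0.20 and -0.03 and passed in GemR siCont cells alone (adjusted p = 0.0322), a call lost without any 1 of 4 libraries and weakest without GemR siCont vehicle replicate 1 (log2 fold change of -0.12, adjusted p of 0.166).

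Of the 6 genes for polymerases and primase, 5, 3 and 4 fell in GemR siSTIM1, GemR siCont and Par cells. The first count was 2 without GemR siSTIM1 vehicle replicate 1, vehicle replicate 2 or thapsigargin replicate 3, and the last was 2 without Par vehicle replicate 3 or thapsigargin replicate 1. POLE2, a small subunit of the leading strand polymerase, had log2 fold changes of -0.41, -0.66 and -0.66, while POLA1, the catalytic subunit of the polymerase that primes each strand, had -0.11, -0.11 and 0.03. PCNA, the sliding clamp, had -0.31 (adjusted p = 0.0447), -0.57 and -0.76. The first of these was lost without any 1 of the 6 libraries compared (adjusted p up to 0.119, without GemR siSTIM1 vehicle replicate 2, with -0.29). The second was -0.37 without GemR siCont vehicle replicate 1, and RFC4, a clamp loader subunit with -0.39 in those cells, had -0.24 (adjusted p of 0.0113) without it. FEN1, the nuclease that trims Okazaki fragments, had -0.46, -0.71 and -0.79, and LIG1, the ligase that seals them, had -0.25, -0.23 and -0.15, with no call in Par cells (adjusted p = 0.0578).

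RFC1, the large subunit of the clamp loader, rose in Par cells, where none of the 4 small ones did. It had 1487, 1737 and 1679 normalized counts under thapsigargin and 1639, 1574 and 1576 under vehicle in GemR siSTIM1 cells. It had 1649, 1749 and 1741 and 1662, 1822 and 1859 in GemR siCont cells, and 2323, 2469 and 2415 against 1652, 1640.2 and 1669 in Par cells, thapsigargin first. The groups overlapped in both GemR states and were apart in Par cells, where treated libraries were higher. The log2 fold change was 0.54 ± 0.06 in Par cells (adjusted p = 1.6e-06) and -0.05 ± 0.06 in GemR siCont cells (adjusted p = 0.542). The small subunits RFC2, RFC3, RFC4 and RFC5 had -0.31, -0.25, -0.08 and -0.36 in Par cells, where RFC4 did not pass. In GemR siCont cells they had -0.38, -0.41, -0.39 and -0.31, and all passed. In GemR siSTIM1 cells they had -0.13, -0.34, -0.07 and -0.20. There RFC2 and RFC4 did not pass, as RFC1 did not, and only RFC3 kept its call whichever library was left out.

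Of the 4 genes for chromatin copying and histone messages, 4, 4 and 3 fell in GemR siSTIM1, GemR siCont and Par cells, and CHAF1B, the middle subunit of CAF-1, had -0.15 in Par cells (adjusted p = 0.211). UHRF1, which reads half-methylated DNA behind the fork and brings in DNMT1, had 259.9, 342 and 310.2 against 799.96, 680.1 and 665 normalized counts in GemR siSTIM1 cells, thapsigargin first. It had 215, 261 and 234 against 372, 583 and 637 in GemR siCont cells and 215, 238 and 247 against 548, 576 and 679 in Par cells. No treated library reached its vehicle group, and the log2 fold changes were -1.24 ± 0.16, -1.13 ± 0.16 and -1.35 ± 0.16 (adjusted p = 5.0e-06, 1.1e-05 and 9.9e-07). CHAF1A, the large subunit of the histone chaperone CAF-1, had -0.39, -0.75 and -0.52. SLBP, which binds the end of histone messages, had -0.32, -0.52 and -0.67, with the siSTIM1 call lost without vehicle replicate 2 (-0.27, adjusted p of 0.0512). CLSPN, which links ATR to its kinase CHK1 at stalled forks, had -0.57, -0.66 and -0.92. The thymidylate enzymes moved little: TYMS had -0.23, -0.30 and -0.35, and TK1 had -0.01, -0.14 and -0.29, with a call for TK1 in Par cells alone. The siSTIM1 call of TYMS was lost without any 1 of 4 libraries, at the weakest without vehicle replicate 2 (-0.20, adjusted p of 0.12), and its exons overlap those of ENOSF1 on the other strand over 46.6% of their length.

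**Figure D2:**
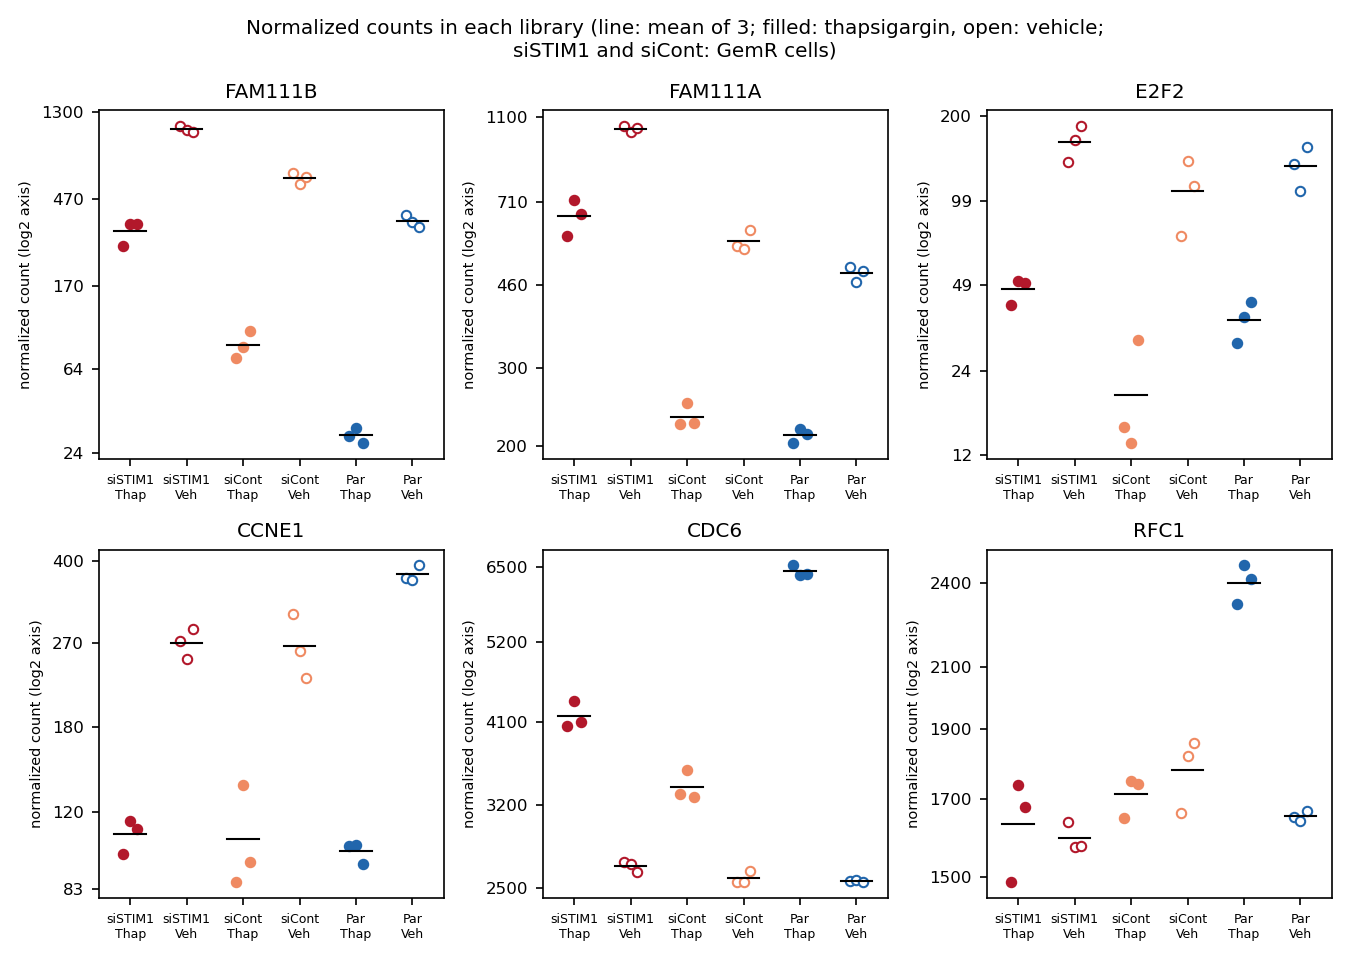
Normalized counts (y axes, log2 scale) of FAM111B, FAM111A, E2F2, CCNE1, CDC6 and RFC1 in every library (points), by group (x axis), with the mean of 3 libraries as a line; filled points are thapsigargin, open points vehicle. The first 4 genes lie lower in each treated group, CDC6 lies higher, and RFC1 is higher in treated Par cells.

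Most members fell, with an E2F match and without one. With a match, 21, 20 and 19 of 23 members fell in GemR siSTIM1, GemR siCont and Par cells, with median log2 fold changes of -0.41, -0.57 and -0.54. Without one, 11, 15 and 12 of 18 fell, with medians of -0.24, -0.44 and -0.34. CDC45, POLD1, TK1 and FAM111A, placed among the members without a match, have further windows that were not counted. The split was not tested, and members of 1 pathway are not independent. Of the members printed above, CDC6 has the motif and rose. POLA1 has 1 match in its window and passed in none of the 3 cell states.

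Of 73 further genes for licensing, forks, checkpoints, the E2F and RB network, nucleotide supply and chromatin, 29 fell and 2 rose in GemR siSTIM1 cells. The counts were 39 and 3 in GemR siCont cells, and 31 and 5 in Par cells. The lower ones made 39.7%, 53.4% and 42.5% of the list, against 11.9%, 15.8% and 19.7% of all genes tested. TICRR, which brings CDC45 to origins, had -0.89 and -0.97 in the GemR states, and CCNA2, the S phase cyclin A, had -0.77 in GemR siSTIM1 cells. POLD3, an accessory subunit of the lagging strand polymerase, had -0.92 in Par cells. RAD9A, of the checkpoint clamp, rose with log2 fold changes of 1.35, 1.07 and 1.42. E2F7, the second atypical repressor, had 4068, 3803 and 3696 normalized counts under thapsigargin against 939, 1107 and 1221 under vehicle in Par cells. E2F7 thus moved opposite to E2F8, with log2 fold changes of 0.37 (adjusted p = 0.093), 1.07 (adjusted p = 2.1e-05) and 1.83 (adjusted p = 1.6e-08). Of 20 genes of G2 phase and mitosis, 18, 18 and 12 fell and 0 rose in GemR siSTIM1, GemR siCont and Par cells by limma, with medians of -0.41, -0.51 and -0.25, against the same shares of all genes. AURKA, a mitotic kinase, fell most, with -0.84, -1.16 and -0.66. Summed levels of the 9 markers of other cell types were 1519 to 1792 in treated against 1094 to 1265 in vehicle GemR siSTIM1 libraries. They were 1521 to 1681 against 1139 to 1369 in GemR siCont cells and 3070 to 3272 against 2142 to 2362 in Par cells. Most of each sum was COL1A1, and without it the sums ran from 66.2 to 217 over all libraries. The part of these markers in the results was not tested.

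**Figure D3:**
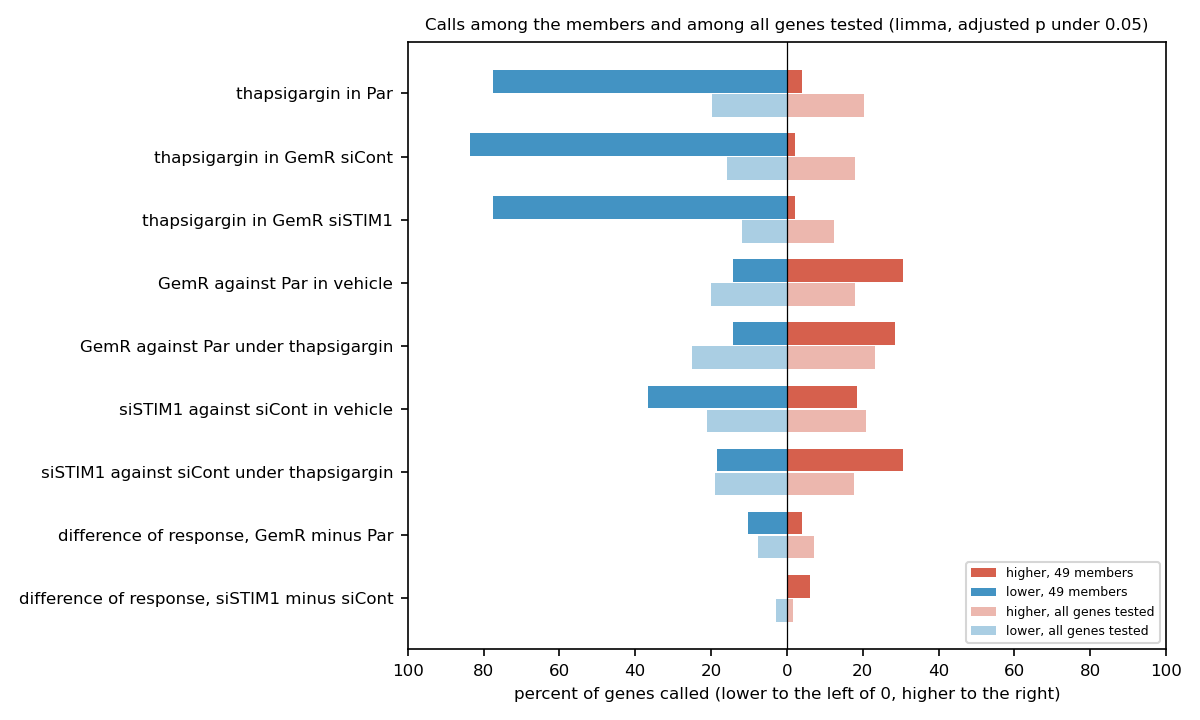
Percent of the 49 members (dark bars) and of all 13096 genes tested (pale bars) called lower (left of 0) and higher (right of 0) in each comparison. The members' lower share reaches 77.6% to 83.7% in the 3 thapsigargin comparisons and exceeds the pale bar there by the widest margin.

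The size of the thapsigargin response differed between the cell states for a few members. Between GemR siCont and Par cells the difference of the 2 log2 fold changes passed for 7 members, 2 higher and 5 lower, where 7.14% of all genes were higher and 7.66% lower (14.8% in all). It was -0.94 ± 0.07 for CDC6 (adjusted p = 3.5e-08), whose rise was smaller in GemR siCont cells. It was -0.59 ± 0.09 for RFC1 (adjusted p = 1.4e-04), which rose in Par cells. FAM111B fell less in GemR siCont cells, with a difference of 0.77 ± 0.17 (adjusted p = 0.0037). These calls, and the ones for DTL and PRIM1, held whichever of the libraries compared was left out. E2F8 (0.81, adjusted p = 0.0368) and ORC6 (-0.37, adjusted p = 0.046) lost theirs with most single libraries left out, at the weakest with 0.71 and an adjusted p of 0.101 for E2F8 without Par thapsigargin replicate 1. ORC6 had -0.32 and an adjusted p of 0.127 without GemR siCont thapsigargin replicate 1. With the same 2 libraries left out as above, 15 members passed, 8 higher and 7 lower, which is 30.6% of members against 29.4% of all genes.

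DTL and PRIM1 fell in GemR siCont cells and did not pass in Par cells. DTL, the receptor through which the ubiquitin ligase CRL4 removes CDT1, had 564, 636 and 629 normalized counts under thapsigargin against 932, 1037 and 1094 under vehicle in GemR siCont cells. In Par cells it had 778, 737 and 809 against 889, 805 and 874, thapsigargin first. The groups were apart in GemR siCont cells and overlapped in Par cells, and the responses differed by -0.60 ± 0.13 (adjusted p = 0.00294). PRIM1, the catalytic subunit of primase, had 439.98, 440.4 and 410.4 against 669, 558 and 589 in GemR siCont cells and 448, 459.7 and 477 against 504, 475 and 461 in Par cells. Its responses differed by -0.43 ± 0.11 (adjusted p = 0.0127), and the Par groups again overlapped.

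Between GemR siSTIM1 and GemR siCont cells the difference of responses passed for 3 members, all higher, where 1.50% of all genes were higher and 2.90% lower (4.41% in all). FAM111B fell less with siSTIM1, by 1.09 ± 0.17 on the log2 scale (adjusted p = 6.1e-04), and FAM111A did so by 0.65 ± 0.11 (adjusted p = 0.0017). Both calls held whichever of the libraries compared was left out. CHAF1A had 1311, 1256 and 1259.5 against 1674, 1686 and 1658 normalized counts in GemR siSTIM1 cells and 1000.3, 1060.4 and 1141 against 1824, 1879 and 1685 in GemR siCont cells, thapsigargin first. The treated groups were apart, with siSTIM1 higher, and the vehicle groups overlapped. Its difference was 0.36 ± 0.09 (adjusted p = 0.0283), and 0.31 with an adjusted p of 0.0877 without GemR siCont thapsigargin replicate 1. Without GemR siCont vehicle replicate 3, 5 members passed (10.2%, against 9.29% of all genes). For CDC6 the difference was 0.25 ± 0.07 and did not pass (adjusted p = 0.0614).

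With siSTIM1, members shifted in both directions. No other siRNA against STIM1 is named among the groups, so loss of STIM1 and other effects of the siRNA cannot be told apart. Under thapsigargin, 15 members were higher and 9 lower in GemR siSTIM1 than in GemR siCont cells, with a median log2 fold change of 0.08, where 17.7% of all genes were higher and 18.9% lower (36.6% in all). Under vehicle, 9 were higher and 18 lower, with a median of -0.10, where 20.9% and 21.1% of all genes were (42.0% in all). That vehicle split was 11 higher and 10 lower after quantile normalization, and 13 members passed when the 6 libraries compared were fitted alone. With both libraries of the lowest rho left out, 18 were higher and 11 lower under thapsigargin, and 10 and 16 under vehicle. These 2 comparisons share libraries with the thapsigargin comparisons in GemR cells.

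The FAM111 pair and part of the E2F and cyclin E group were higher with siSTIM1. FAM111B, with the values given above, had log2 fold changes of 1.91 ± 0.12 under thapsigargin and 0.82 ± 0.12 under vehicle (adjusted p = 4.4e-10 and 2.9e-05), and no siSTIM1 library overlapped a siCont library of the same treatment. FAM111A had 1.50 ± 0.08 and 0.84 ± 0.08 (adjusted p = 5.4e-11 and 1.7e-07). E2F1 had 0.64 and 0.35, thapsigargin first, and passed in both. E2F2 passed under thapsigargin (1.31 ± 0.26, adjusted p = 6.3e-04) and had 0.62 under vehicle (adjusted p = 0.0686). E2F8 had 0.31 under thapsigargin (adjusted p = 0.183) and passed under vehicle (0.69 ± 0.18, adjusted p = 0.00478). The 2 treatments were not shown to differ for E2F2 or E2F8, whose differences of response had adjusted p of 0.294 and 0.401.

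CCNE2 had 227, 309.8 and 307 normalized counts in treated GemR siSTIM1 cells against 158, 188 and 205 in treated GemR siCont cells. Under vehicle it had 558, 602 and 497 against 297, 285 and 318, siSTIM1 first. The groups did not overlap under either treatment, and the log2 fold changes were 0.61 ± 0.12 and 0.87 ± 0.12 (adjusted p = 5.3e-04 and 1.5e-05). INTS8, whose exons overlap it, was higher by 0.33 under vehicle (adjusted p = 0.00224) and had 0.17 under thapsigargin (adjusted p = 0.094). CCNE1 did not pass, with 0.06 and 0.03. RPA1, the large subunit of the protein that coats single-stranded DNA, was higher by 0.49 and 0.35 and passed in both.

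GINS1 fell most with siSTIM1 under both treatments, and GINS2, of the same complex, fell as well. GINS1 had 181, 202 and 192 normalized counts in treated GemR siSTIM1 cells against 399.6, 436 and 481 in treated GemR siCont cells. Under vehicle it had 406, 365 and 337 against 753, 786 and 777, siSTIM1 first. Every siSTIM1 library lay below every siCont library of the same treatment, and the log2 fold changes were -1.19 ± 0.08 and -1.07 ± 0.08 (adjusted p = 2.4e-09 and 1.5e-08). GINS2 had 756, 694 and 639.8 against 1115, 1119 and 1118 under thapsigargin and 908, 1057 and 978 against 1808, 1502 and 1411 under vehicle, siSTIM1 first. Its groups did not overlap either, with -0.68 ± 0.10 and -0.68 ± 0.10 (adjusted p = 2.1e-05 and 3.0e-05). The complex did not move as a unit, since GINS3 was higher by 0.40 under thapsigargin (adjusted p = 5.5e-04) and GINS4 had -0.14 (adjusted p = 0.177).

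TK1, thymidine kinase of the salvage pathway, had 5830.4, 4721 and 4912 normalized counts in treated GemR siSTIM1 cells against 7384, 7507 and 6864 in treated GemR siCont cells. Under vehicle it had 4993, 5344 and 5163 against 9104, 7771 and 7169.8, siSTIM1 first. The groups were apart under both treatments, with log2 fold changes of -0.50 ± 0.08 and -0.63 ± 0.08 (adjusted p = 1.0e-04 and 1.0e-05). LIG1 was lower by small amounts in both, with -0.25 and -0.23. MCM2 to MCM7 were all lower under vehicle, from -0.29 (MCM2) to -0.17 (MCM6), but none of the 6 passed after quantile normalization, where they ran from -0.14 to -0.06. MCM6 lost its call without any 1 of 3 libraries, at the weakest without GemR siSTIM1 vehicle replicate 3 (-0.10, adjusted p of 0.231).

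RPA3, the smallest subunit of the single-strand binding protein, rested in part on 1 library. It had 1209.6, 1348 and 1182 normalized counts in GemR siSTIM1 and 2904, 1794 and 1511 in GemR siCont cells under vehicle, where replicate 1 of the second group is the high value and the library with the lowest rho against gene length. Its log2 fold change was -0.68 ± 0.15 (adjusted p = 0.00142) and -0.40 (adjusted p of 7.4e-04) without that library. Under thapsigargin it had 1344, 1269.8 and 1164 against 1687, 1579 and 1551, siSTIM1 first, and did not pass although the groups did not overlap (-0.35, adjusted p = 0.0717). PCNA under vehicle was -0.29 (adjusted p = 0.0388) and -0.09 (adjusted p of 0.271) without the same library, and UHRF1 was 0.46 (adjusted p = 0.0233) and 0.23 (adjusted p of 0.155) without it.

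**Figure D4:**
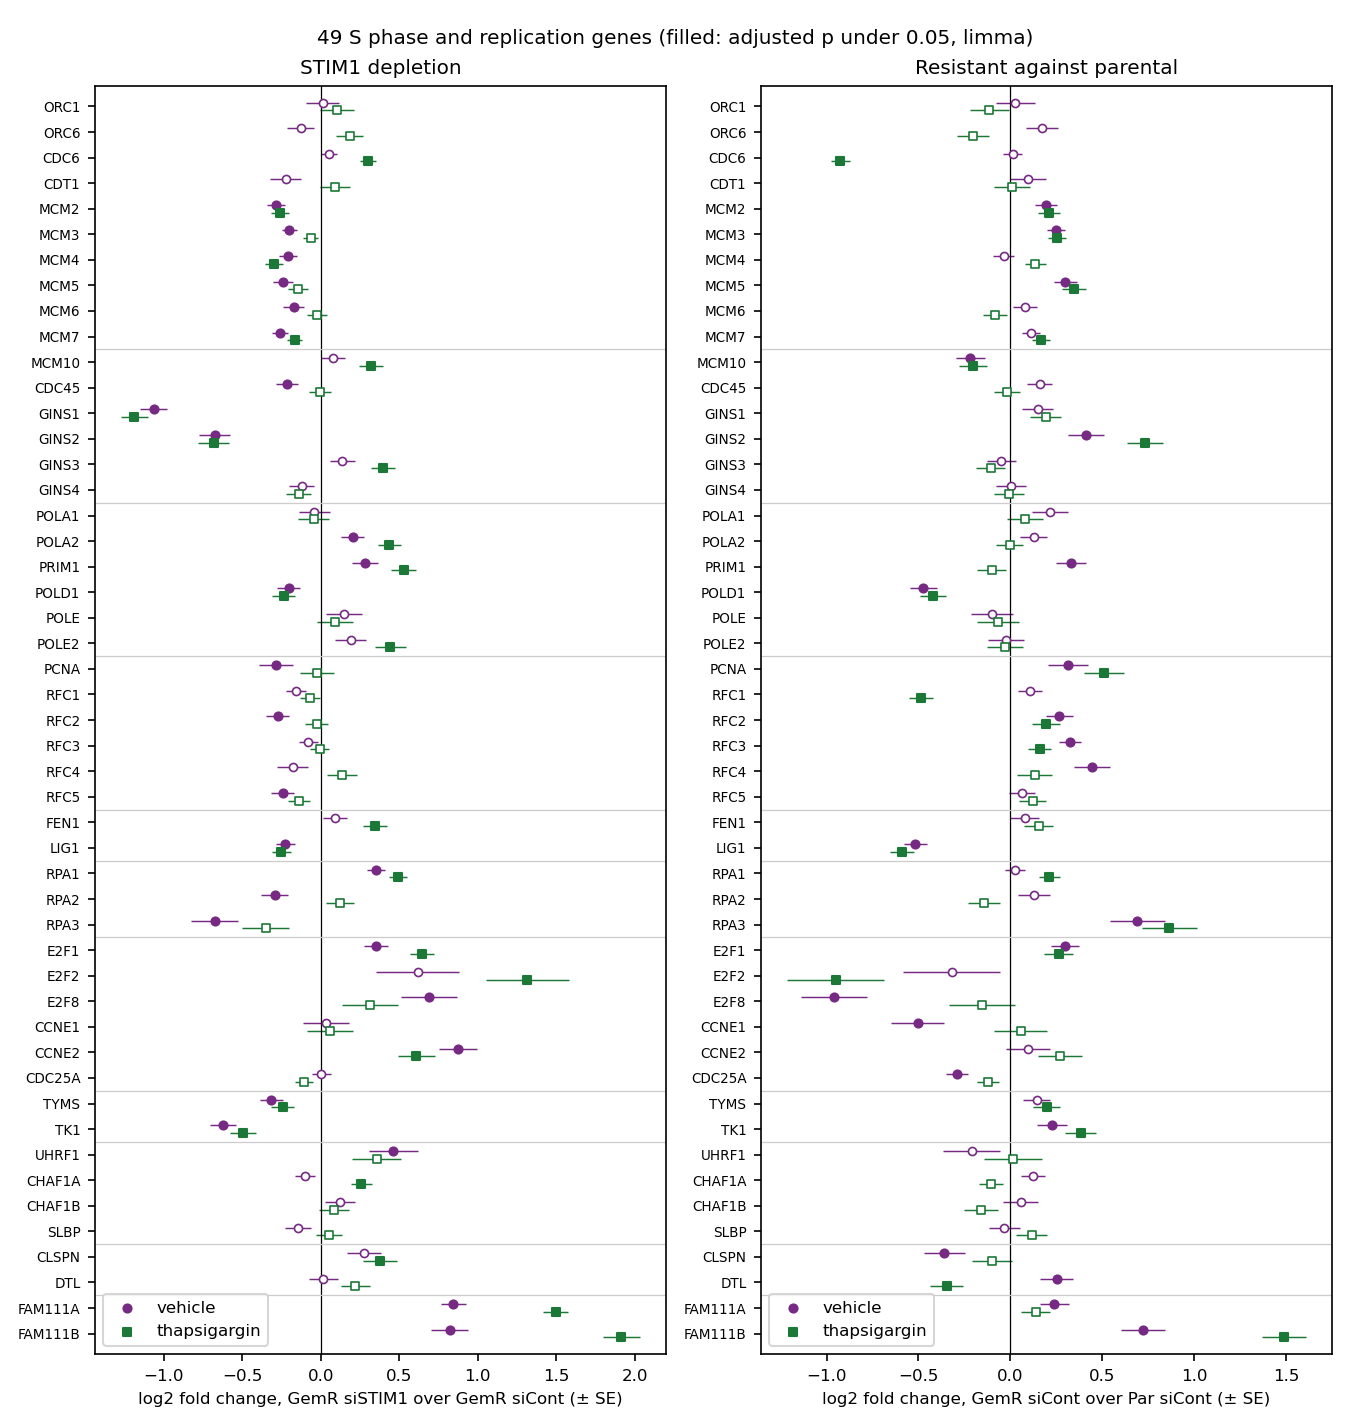
Log2 fold change (x axes, bars are standard errors) of the 49 members (y axes, by role) for GemR siSTIM1 over GemR siCont cells on the left and GemR siCont over Par siCont cells on the right, under vehicle (circles) and thapsigargin (squares); filled points passed an adjusted p under 0.05. GINS1 lies farthest left and FAM111B farthest right under thapsigargin in the left panel, and points fall on both sides of 0 in both panels.

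Between the resistant and parental lines, members differed in both directions, and derivative and gemcitabine cannot be told apart here. As shares of the members, 28.6% were higher and 14.3% lower under thapsigargin, and 30.6% and 14.3% under vehicle. Under thapsigargin, 14 members were higher and 7 lower in GemR siCont than in Par siCont cells, with a median log2 fold change of 0.01, where 23.2% of all genes were higher and 25.0% lower (48.2% in all). Under vehicle, 15 were higher and 7 lower, with a median of 0.11, where 18.1% and 20.1% of all genes were (38.2% in all). The vehicle count was 14 in all when the 6 libraries compared were fitted alone. With both libraries of the lowest rho left out, 19 were higher and 8 lower under thapsigargin, and 17 and 7 under vehicle. Without Par thapsigargin replicate 1 the treated count of higher members was 9. These 2 comparisons share libraries with the thapsigargin comparisons too. The calls kept whichever of the libraries compared was left out numbered 15 of 21 under thapsigargin and 15 of 22 under vehicle.

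FAM111B was higher in the resistant line, by 1.49 ± 0.12 under thapsigargin and 0.72 ± 0.12 under vehicle (adjusted p = 6.4e-09 and 8.9e-05). RPA3 had 1687, 1579 and 1551 normalized counts in treated GemR siCont against 841, 865 and 939 in treated Par cells. Under vehicle it had 2904, 1794 and 1511 against 1253, 1306 and 1144, GemR first. The groups did not overlap, with log2 fold changes of 0.86 ± 0.15 and 0.69 ± 0.15 (adjusted p = 9.2e-05 and 0.00113), the second of them 0.42 (adjusted p of 4.2e-04) without GemR siCont vehicle replicate 1. GINS2, with the values given above, was higher by 0.73 and 0.41 and passed in both. PCNA was higher by 0.51 under thapsigargin (adjusted p = 6.6e-04), and its vehicle call (0.31, adjusted p = 0.0276) was 0.12 (adjusted p of 0.151) without that same vehicle library. RFC4 under vehicle was 0.44 (adjusted p = 0.00116) and 0.29 (adjusted p of 0.00185) without it. MCM3 and MCM5 were higher under both treatments, by 0.25 to 0.35 on the log2 scale.

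LIG1 was lower in the resistant line. It had 862, 845 and 883 normalized counts in treated GemR siCont cells against 1259, 1354 and 1286 in treated Par cells, and 1019, 1029 and 983 against 1443, 1410.2 and 1484 under vehicle, GemR first. The groups were far apart, with log2 fold changes of -0.59 ± 0.06 and -0.52 ± 0.06 (adjusted p = 3.0e-07 and 2.5e-06). POLD1, the catalytic subunit of the lagging strand polymerase, was lower by similar amounts, -0.42 and -0.47, and passed in both. E2F8 and CCNE1 were lower under vehicle, by -0.96 ± 0.18 and -0.50 ± 0.14 (adjusted p = 2.9e-04 and 0.00952). Under thapsigargin E2F8 had -0.15 and CCNE1 had 0.06, and neither passed. E2F2 was lower under thapsigargin, by -0.95 ± 0.26 (adjusted p = 0.00601), with 1 GemR library inside the Par range, and CDC6 was lower there by -0.93 ± 0.05 (adjusted p = 4.4e-11). CDC6 under vehicle had 0.01 ± 0.05 (adjusted p = 0.874).

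Of the 73 further replication genes, 20 were higher and 19 lower in GemR siCont than in Par cells under thapsigargin, and 21 and 11 under vehicle. These were 27.4% and 26.0% of the list under thapsigargin, against 23.2% and 25.0% of all genes, and 28.8% and 15.1% under vehicle, against 18.1% and 20.1%. RRM1 had by far the largest value, with log2 fold changes of 4.06 and 4.16. RRM2, the partner subunit of ribonucleotide reductase, was lower, by -0.29 and -0.42. With siSTIM1, 16 of the 73 were higher and 17 lower than with siCont under thapsigargin, and 15 and 21 under vehicle. These were 21.9% and 23.3% under thapsigargin, against 17.7% and 18.9% of all genes, and 20.5% and 28.8% under vehicle, against 20.9% and 21.1%. E2F3, the third activating E2F factor, was higher by 0.80 and 0.92. RRM2B, the p53-induced form of RRM2, was lower by -1.13 and -0.72.

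**Figure D5:**
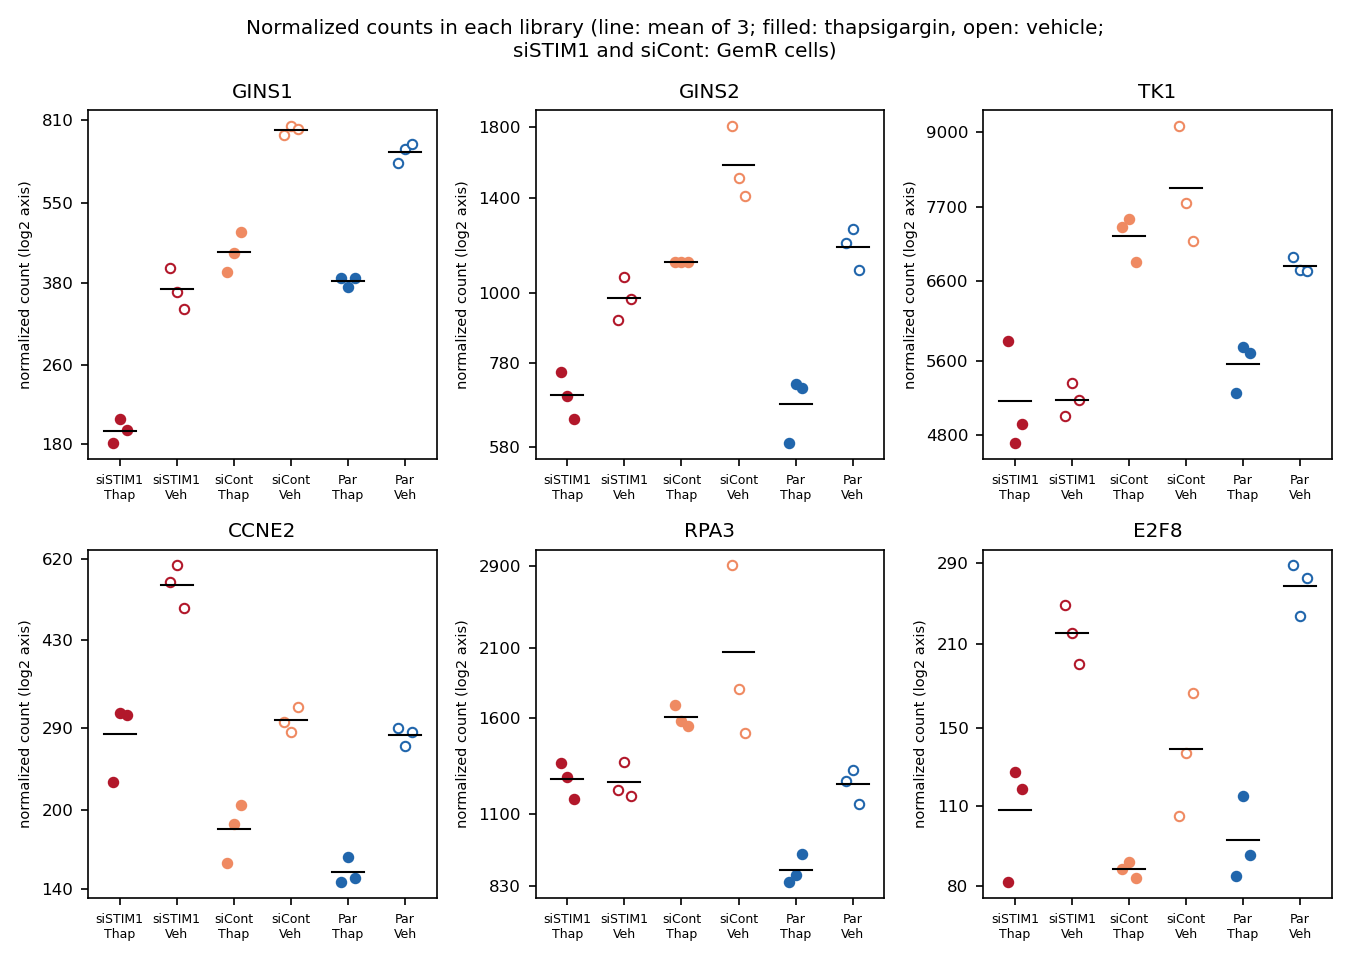
Normalized counts (y axes, log2 scale) of GINS1, GINS2, TK1, CCNE2, RPA3 and E2F8 in every library (points), by group (x axis), with the mean of 3 libraries as a line; filled points are thapsigargin, open points vehicle. GINS1, GINS2 and TK1 lie lower in GemR siSTIM1 than in GemR siCont libraries of the same treatment, CCNE2 lies higher, and the first RPA3 library of GemR siCont vehicle stands above the others.

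Levels of different members were compared per kilobase of the longest principal transcript in GENCODE 29. In Par vehicle cells MCM7 and TK1 were highest, at 4267 ± 51.9 and 4185 ± 67.3 normalized counts per kilobase (SD, n = 3). That spread is between libraries and leaves out the choice of length, so the 2 were not ranked. The lengths used were 2957 bases for MCM7 and 1628 for TK1, while all their exons cover 4386 and 1861. PCNA followed at 1861 ± 124, beside MCM2 at 1838 ± 74.9, MCM3 at 1768 ± 43.7 and MCM4 at 1733 ± 45.9, whose ranges meet. MCM5 stood at 1246 ± 51.5 and MCM6 at 970.4 ± 29.1, so on these lengths the messages of the 6 ring subunits were not at 1 level. At the low end stood E2F2 at 25.4 ± 4.57, below E2F8 at 75.3 ± 7.76, CHAF1B at 76.7 ± 3.42 and FAM111A at 79.2 ± 3.2. Reads of PCNA, RPA2, TYMS, RFC3, RFC5 and FEN1 may also be shared with pseudogenes of their names, 3, 3, 2, 1, 1 and 1 in GENCODE 29. Besides CCNE2 and TYMS, exons of other genes overlap 35.1% of the exon length of POLA2, 23.6% of MCM2 and of GINS4, and 21.6% of PRIM1.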

How the data were processed

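Polyadenylated RNA of 18 samples in 6 groups was extracted with QIAzol and made into libraries with a TruSeq RNA v2 kit, per the labels' protocols. The deposited table gives normalized counts per gene, the signal that the authors made by dividing read counts by 1 size factor per library. Alignment with STAR 2.6.0c to hg38, counting with HTSeq 0.11.1 and normalization with DESeq2 are named in the submitters' processing notes. For the annotation, and for filters, a description is not given in the sources used here. Comparison tables deposited by the authors hold log2 fold changes and p-values. Of these, 2 that differ in both line and treatment were not used.

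Genes with a mean of at least 10 normalized counts (13096 of 26485) were tested with limma 3.58.1 in R 4.3.3 on log2(value + 1), in 1 fit of all 6 groups with 12 residual degrees of freedom and Benjamini-Hochberg adjustment over all genes tested. Fold changes are on that scale and understate changes of low genes. Differences of response are interaction terms. Whole reads could be recovered from the steps of the table (100% of values whole within 0.01), giving 8922439 to 16519239 reads per library. edgeR 4.0.16 and DESeq2 1.42.0 were run on the recovered reads of 17 libraries as alternatives, leaving out GemR siSTIM1 vehicle replicate 3. In these tools, comparisons with that group thus rest on fewer libraries than in the main fit. Other alternatives were the pseudocount, the filter, centring, quantile normalization, a replicate block, fits of the libraries compared and leaving out libraries. The fit was also run on simulated counts that held no trend with gene length, and no result here rests on that run. Tables and promoter motifs were handled in Python 3.11.15 with pandas 2.3.3 and numpy 2.4.6.

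The members and gene lists were chosen with earlier results of these data known. Values in every library are given, per comparison, for the 3 called members with the largest change and a mean of at least 50 in 1 group, for up to 3 called members against the prevailing direction, and for up to 6 members whose responses differed. Other members are given by fold change. Of the other lists, up to 3 called genes per comparison are named. UHRF1 and E2F7, and the genes named for a lost call, were chosen after their values were seen. The values of 1 marker of other cell types are not reported here.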

Additional observations from a re-analysis of the deposited data

Results flagged for a closer look

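The response to thapsigargin differed between cell states for 9 members by the interaction term of the limma fit. For GemR siCont against Par cells these were 14.3% of members, against 14.8% of all genes tested. For GemR siSTIM1 against GemR siCont cells they were 6.12%, against 4.41%. Between GemR siCont and Par cells the difference of log2 fold changes was -0.94 for CDC6, -0.60 for DTL, -0.59 for RFC1, -0.43 for PRIM1 and -0.37 for ORC6. It was 0.81 for E2F8 and 0.77 for FAM111B. Between GemR siSTIM1 and GemR siCont cells it was 1.09 for FAM111B, 0.65 for FAM111A and 0.36 for CHAF1A. Of these, the calls for E2F8, ORC6 and CHAF1A were lost when single libraries were left out, as given above.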

How the results depend on the processing

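Direction held for every member called, under all alternatives run. With only the libraries compared in the fit, members called were 14 in place of 22 for GemR against Par under vehicle and 13 in place of 27 for siSTIM1 against siCont under vehicle. All genes called under that setting were 2843 in place of 4402 for thapsigargin in GemR siCont cells, 3129 in place of 5000 and 3294 in place of 5496 for the same 2 vehicle comparisons, and 317 in place of 577 for the siSTIM1 difference of response. The same setting raised them to 6691 in place of 5253 for thapsigargin in Par cells (42 members in place of 40) and to 8041 in place of 6314 for GemR against Par under thapsigargin (27 in place of 21). With both libraries of the lowest rho against gene length left out, members called were 15 in place of 7 for the GemR and Par difference of response (3852 genes in all, in place of 1938) and 5 in place of 3 for the siSTIM1 difference. Leaving out 1 library at a time gave 2 to 5 members and 323 to 1216 genes for the siSTIM1 difference, highest without GemR siCont vehicle replicate 3, and 1529 to 2943 genes for the GemR and Par difference, highest without GemR siCont vehicle replicate 1. On the 17 libraries without GemR siSTIM1 vehicle replicate 3, edgeR called 346 genes for the siSTIM1 difference, DESeq2 546 and limma 341. The causes were not tested. Samples of the same replicate number had correlations of deviations from -0.18 to 0.23, and the main fit did not pair them. With the replicate block 39, 43 and 40 members were called for thapsigargin in GemR siSTIM1, GemR siCont and Par cells. The differences of response had 7 and 4. For siSTIM1 against siCont the block gave 30 members in place of 27 under vehicle and 26 in place of 24 under thapsigargin. GemR against Par kept 22 and 21. More genes in all were called with the block in every comparison, such as 5753 in place of 5496 for siSTIM1 against siCont under vehicle.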
